A study of Danio rerio with 15 samples.

Results

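The insulin-like growth factor (IGF) genes of the zebrafish testis described here are 3 ligands, igf1, igf2a and igf2b, and 2 receptors, igf1ra and igf1rb. They were taken by gene identifier, in this order ENSDARG00000094132, ENSDARG00000018643, ENSDARG00000033307, ENSDARG00000027423 and ENSDARG00000034434, as 5 of the 33752 identifiers counted, and all 5 were abundant enough to be among the 21277 genes tested. The letters of igf1ra and igf1rb come with this choice of identifiers, since the reference gene table names both IGF1R. RNA was sequenced from testes of adult wild-type zebrafish in 3 states, namely control, depleted, and recovering after depletion. The samples analysed were 4 control, 5 depleted and 5 recovering biological replicates, and control replicate 2 was not analysed here. Retinoic acid, androgens and follicle-stimulating hormone stand in the title of the series, and the comparisons ask how IGF transcripts differ between these states. The sources used here give neither the way in which testes were depleted, nor the recovery time, nor whether a library holds tissue of 1 fish or of several.

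IGF ligands are secreted peptides related to insulin that bind a receptor tyrosine kinase, the IGF1 receptor, on the cell surface. The activated receptor signals through adaptor proteins to PI3K, AKT and TOR and to the MAP kinase cascade, which promote growth, survival and division, while binding proteins in the extracellular fluid hold the ligands and set how much reaches the receptor. In vertebrates the liver is the main source of circulating IGF1, many tissues make IGF ligands locally, and fish carry a further, gonadal ligand, Igf3, which stimulates spermatogonia in the zebrafish testis. Zebrafish keep duplicated copies of the IGF2 and IGF1 receptor genes.

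The libraries held between 8123444 and 48646941 counts, with a median of 9307359, and the counts of a member ranged from 1 count of igf1 to 2043 counts of igf2b. Levels are given as CPM, counts per 1000000 in a library after TMM (trimmed mean of M-values) scaling, which compares 1 gene between libraries but, without gene lengths, not 1 gene with another. Summed transcripts of 7 germ cell markers lay between 6792 and 7730 CPM in control, between 18.7 and 3477 CPM in depleted and between 5645 and 8530 CPM in recovering testes, and none of the 7 was at 0 throughout a group. The germ cell markers of the depleted group were high in replicates 1 and 2, at 2564 and 3477 CPM, and lower in replicates 3, 4 and 5, at 105, 311 and 18.7 CPM. Summed markers of somatic cells were higher in depleted than in control testes, at 2961 to 6214 against 1482 to 1994 CPM for 9 Sertoli cell identifiers and at 3741 to 12415 against 329 to 806 CPM for 8 peritubular and stromal identifiers. The sum of 8 Leydig cell identifiers was 1108 CPM in depleted replicate 5 and 5001 to 14070 CPM in the other depleted libraries, against 730 to 1409 CPM in control testes. In the recovering group the Sertoli, stromal and Leydig sums were 1870 to 3040, 986 to 3271 and 2670 to 3856 CPM. Marker sums of 4 further cell types were also higher in every depleted than in every control library, at 66.0 to 211 against 8.73 to 21.6 CPM for 3 endothelial markers, 266 to 889 against 46.4 to 99.4 CPM for 3 leukocyte markers, 480 to 2506 against 19.8 to 227 CPM for 3 erythrocyte markers and 5230 to 10451 against 448 to 982 CPM for 4 epithelial markers. In recovering testes these 4 sums were 16.9 to 55.5, 62.6 to 208, 207 to 1296 and 623 to 4237 CPM. Depleted replicates 4 and 1 stood apart in the summed transcripts of 4 liver markers (fabp10a, tfa, serpina1 and fga), at 10925 and 3596 CPM, against 82.0 to 579 CPM in the other 3 depleted libraries, 16.4 to 208 CPM in control and 37.4 to 1114 CPM in recovering testes. A sum does not show its single markers. In depleted against control testes edgeR did not call 4 of 7 germ cell, 2 of 9 Sertoli, 1 of 4 epithelial and 1 of 4 liver identifiers. It called 66.3% of all genes tested in that comparison. The germ cell genes not called were DDX4, PIWIL1, PIWIL2 and DMC1, with log2 changes of -1.83, -2.40, -2.12 and -2.49. Their standard errors were 0.99, 1.09, 1.09 and 1.26. Each was lower in every depleted than in every control library, where groups failed to overlap for 53.3% of all genes tested. In whole tissue, fewer cells of a type and less RNA per cell cannot be told apart, and the part of cell composition in the results below was not tested.

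In depleted testes both igf2 transcripts were more than 10-fold above control and igf1rb was below control, whereas igf1 and igf1ra did not pass the test. Of the 5 members, 2 rose and 1 fell in depleted against control testes (edgeR quasi-likelihood test, Benjamini-Hochberg adjusted p under 0.05). In that comparison 66.3% of all genes tested passed, 34.2% rising and 32.1% falling, so a call by itself sets no member apart from the rest of the transcriptome. In recovering against depleted testes 3 members fell, igf2a, igf2b and igf1ra, beside 59.2% of all genes passing and 30.5% falling. In recovering against control testes none of the 5 passed by edgeR, beside 0.451% of all genes that passed, 0.418% higher and 0.0329% lower in recovering testes. The unadjusted edgeR p in that comparison was under 0.05 for igf2a and igf2b, and for 3394 of the 21277 genes tested. By DESeq2 and limma-voom igf2b passed, beside 7.04% and 11.2% of all genes with an adjusted p from these tools. The 3 comparisons share samples, so their values are given side by side and are not independent of each other.

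**Figure D1:**
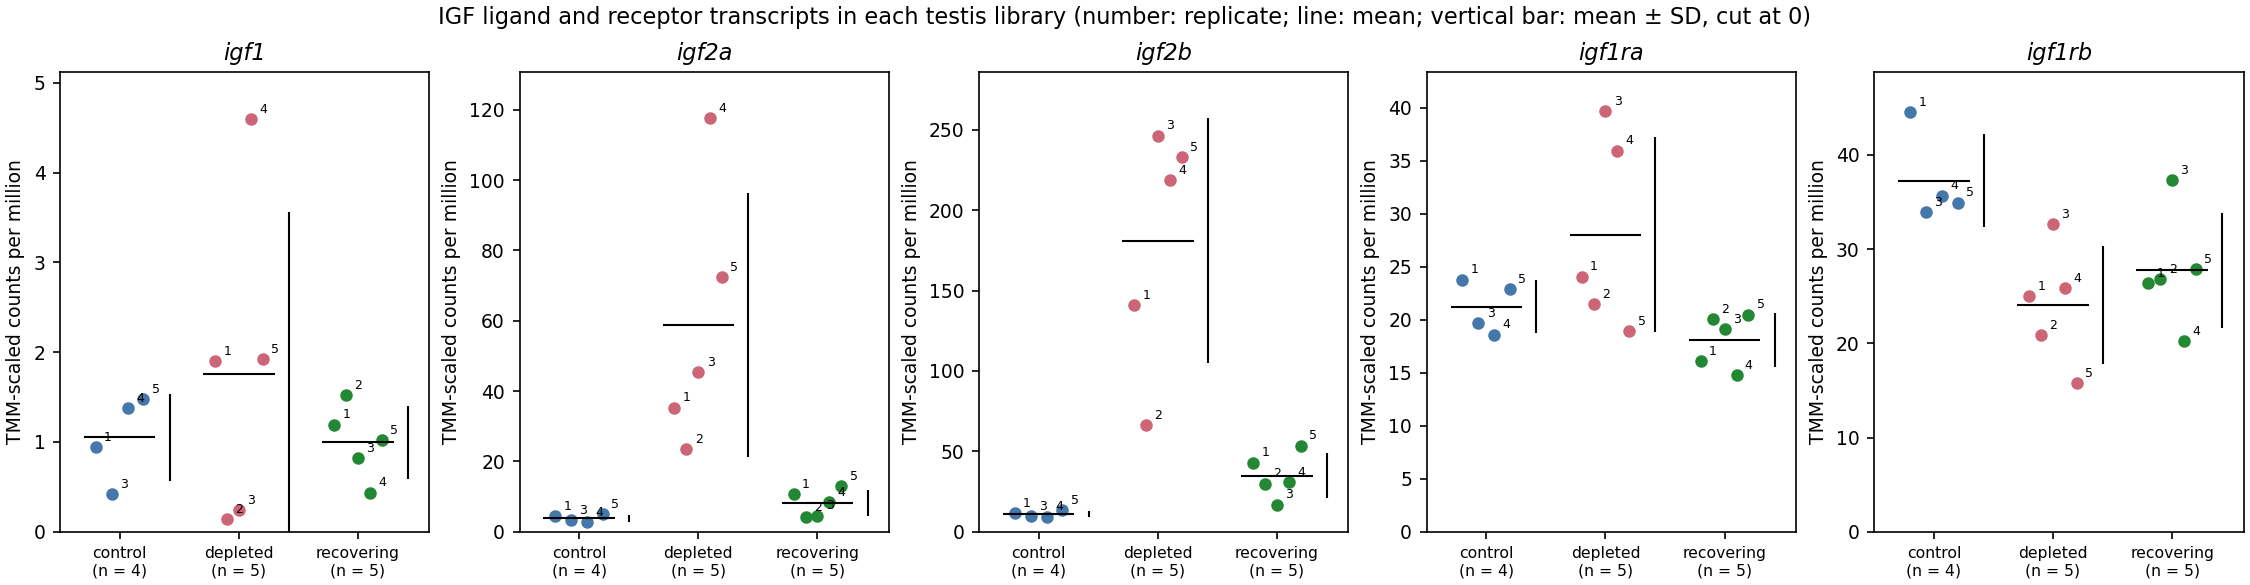
TMM-scaled CPM (vertical axes, linear, from 0) of each IGF ligand and receptor gene in every library, by group; numbers are replicates, horizontal lines are means and vertical bars are mean ± SD, cut at 0. All depleted libraries lie above all control libraries for igf2a and igf2b and below them for igf1rb, and all recovering libraries lie above control for igf2b. Groups did not overlap for 53.3% of all genes tested in depleted against control and for 12.5% in recovering against control testes.

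The ligand igf2a codes for one of the 2 zebrafish Igf2 peptides, and its transcript was the scarcer of the igf2 pair in counts. In control replicates 1, 3, 4 and 5 it stood at 4.38, 3.22, 2.83 and 4.92 CPM. In depleted replicates 1 to 5 it stood at 35.3, 23.4, 45.3, 118 and 72.5 CPM, and in recovering replicates 1 to 5 at 10.8, 4.17, 4.61, 8.48 and 13.0 CPM. Every depleted library was above every control and every recovering library, depleted replicate 4 was the highest, and recovering replicates 2 and 3 lay within the control range. Groups failed to overlap for 53.3% of all genes in depleted against control and for 33.3% in recovering against depleted testes. The group means were 3.84 ± 0.976 CPM in control (SD, n = 4), 58.8 ± 37.5 CPM in depleted (SD, n = 5) and 8.19 ± 3.82 CPM in the recovering group (SD, n = 5). The rise in depleted testes was 3.92 ± 0.52 on the log2 scale (SE), or 15.2-fold, with an edgeR adjusted p of 6.77e-05 and a 95% interval from 2.81 to 5.04. That fold change was at percentile 97.7 of all genes tested in the comparison. From depleted to recovering testes igf2a fell by 2.85 ± 0.45 on the log2 scale, a 7.20-fold decrease (edgeR adjusted p = 0.000451). Recovering against control testes differed by 1.08 ± 0.47 on the log2 scale, which did not pass the test (edgeR adjusted p = 0.275, unadjusted p = 0.0370).

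The ligand igf2b codes for the other Igf2 peptide and held the highest counts of the 3 ligands. In control replicates 1, 3, 4 and 5 its level was 11.7, 9.57, 9.42 and 13.4 CPM. In depleted replicates 1 to 5 it was 141, 66.1, 246, 219 and 233 CPM, and in recovering replicates 1 to 5 it was 43.0, 30.0, 16.8, 31.1 and 53.6 CPM. No 2 groups overlapped, with control lowest, recovering between and depleted highest. Groups failed to overlap for 53.3% of all genes tested in depleted against control, for 33.3% in recovering against depleted and for 12.5% in recovering against control testes. The means were 11.0 ± 1.89 CPM in control (SD, n = 4), 181 ± 76.1 CPM in depleted (SD, n = 5) and 34.9 ± 14.0 CPM in the recovering group (SD, n = 5). Depleted testes were 16.4-fold above control, a log2 change of 4.03 ± 0.43 (SE, edgeR adjusted p = 3.13e-05) at percentile 98.0 of all genes. From depleted to recovering testes igf2b fell by 2.38 ± 0.36 on the log2 scale, a 5.19-fold decrease (edgeR adjusted p = 0.000396).

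Recovering testes held 3.16-fold more igf2b than control testes, a log2 difference of 1.66 ± 0.39 with a 95% interval from 0.83 to 2.49. The edgeR adjusted p over all genes was 0.0653, just above the threshold of 0.05, although each recovering library exceeded each control library. The difference was 1.61 with an adjusted p of 0.00198 in DESeq2, 1.59 with an adjusted p of 0.00668 in limma-voom, and 1.70 with an adjusted p of 0.0268 in edgeR fitted to the control and recovering groups alone, which called 6.01% of all genes. Leaving out 1 library at a time moved it between 1.45 and 1.83 and the edgeR adjusted p between 0.0249 and 0.234, with p below the threshold without depleted replicate 2, depleted replicate 5 or recovering replicate 3.

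The depleted libraries differed in liver and germ cell markers as well as in the igf2 ligands. Depleted replicates 1 and 2, with the highest germ cell marker sums of the group, had its lowest levels of igf2a, at 35.3 and 23.4 CPM, and of igf2b, at 141 and 66.1 CPM. Without depleted replicate 1 the log2 change from control to depleted testes was 4.06 for igf2a and 4.11 for igf2b, and without depleted replicate 2 it was 4.11 and 4.24. Depleted replicate 1 had the second highest liver marker sum, at 3596 CPM. Depleted replicate 4, with the highest liver marker sum, also had the highest igf2a level, and without it the log2 change of igf2a was 3.52 from control to depleted and -2.41 from depleted to recovering testes. The igf2b change without that library was 3.97 and -2.28 in the same comparisons. Depleted replicate 3, whose liver marker sum of 82.0 CPM was within the control range, had 45.3 CPM of igf2a and 246 CPM of igf2b, both above every control library. The part of liver or germ cell transcripts in the igf2 levels was not tested.

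**Figure D2:**
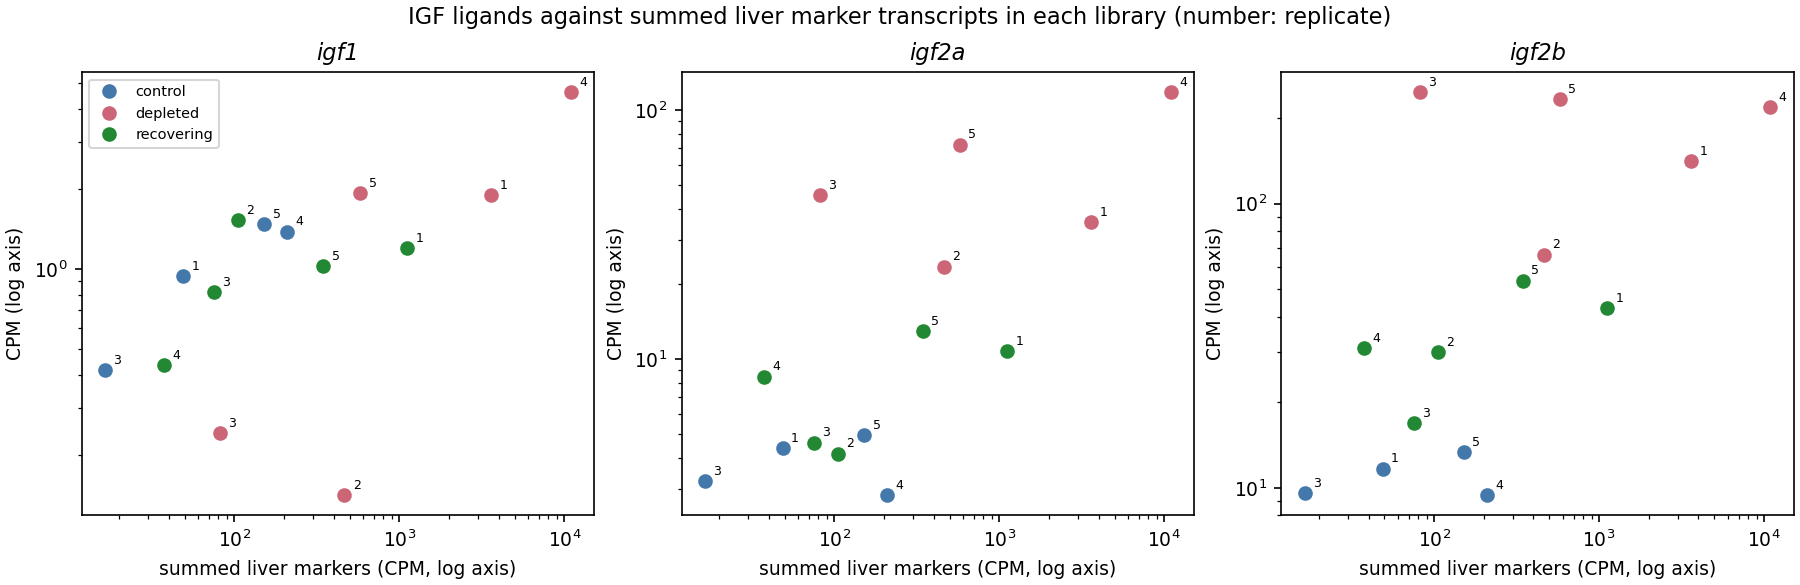
Level of each ligand (vertical, CPM, log axis) against the summed level of 4 liver markers (horizontal, CPM, log axis) in the 14 libraries; colours are groups and numbers are replicates. Depleted replicate 4, at 10925 CPM of liver markers, is highest for igf1 and igf2a, and depleted replicate 3, at 82.0 CPM, lies above every control for igf2a and igf2b. The part of liver transcripts in these levels was not tested.

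The ligand igf1, whose product is the main circulating IGF under growth hormone control, was close to the limit of detection, with 1 to 80 counts per library. In control replicates 1, 3, 4 and 5 its level was 0.940, 0.416, 1.38 and 1.47 CPM. In depleted replicates 1 to 5 it was 1.90, 0.141, 0.241, 4.60 and 1.92 CPM, and in recovering replicates 1 to 5 it was 1.19, 1.52, 0.818, 0.435 and 1.02 CPM. The groups overlapped, and depleted testes held both the highest and the lowest library, a 32.6-fold range that started at 1 count in replicate 2, whose exact 95% interval ran from 0.00358 to 0.787 CPM. The means were 1.05 ± 0.484 CPM in control (SD, n = 4), 1.76 ± 1.80 CPM in depleted (SD, n = 5) and 0.998 ± 0.407 CPM in the recovering group (SD, n = 5). The log2 difference was 0.70 ± 0.73 (SE) for depleted against control, with a 95% interval from -0.87 to 2.26, and -0.80 ± 0.69 for recovering against depleted testes. Neither passed the edgeR test, with adjusted p of 0.406 and 0.323, nor did the difference of -0.11 ± 0.72 between recovering and control testes (adjusted p = 0.965). Depleted replicate 4 had the highest igf1 and the highest liver markers, and without it the differences were -0.018 for depleted against control and -0.052 for recovering against depleted testes. The exact counting intervals of depleted replicates 2 and 4, with upper limit 0.787 CPM and lower limit 3.18 CPM, did not overlap, so the depleted libraries differed by more than counting error.

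The receptor igf1ra, a zebrafish copy of the IGF1 receptor, varied less than the igf2 ligands. In control replicates 1, 3, 4 and 5 its level was 23.8, 19.7, 18.6 and 22.9 CPM. In depleted replicates 1 to 5 it was 24.1, 21.5, 39.7, 36.0 and 18.9 CPM, and in recovering replicates 1 to 5 it was 16.1, 20.0, 19.1, 14.8 and 20.5 CPM. Depleted replicates 3 and 4 were the highest libraries, depleted replicates 2 and 5 lay within the control range, and no pair of groups was separated. The means were 21.2 ± 2.50 CPM in control (SD, n = 4), 28.0 ± 9.22 CPM in depleted (SD, n = 5) and 18.1 ± 2.53 CPM in the recovering group (SD, n = 5). Depleted against control testes differed by 0.40 ± 0.22 on the log2 scale (SE, edgeR adjusted p = 0.125). It was 0.54 with an adjusted p of 0.0287 without depleted replicate 5, and 0.040 with libraries scaled to total counts. Less the median of all genes under the same scaling, this difference was 0.37 with TMM and 0.38 with total counts. From depleted to recovering testes igf1ra fell by 0.63 ± 0.21 on the log2 scale, a 1.55-fold decrease (edgeR adjusted p = 0.0203). That call was lost without depleted replicate 3 (-0.46, adjusted p = 0.0590) or depleted replicate 4 (-0.52, adjusted p = 0.0531), and with libraries scaled to total counts (-0.33, adjusted p = 0.242). Less the median of all genes, this change was -0.59 with TMM and -0.59 with total counts. Recovering against control testes differed by -0.23 ± 0.22 (edgeR adjusted p = 0.686).

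The receptor igf1rb, the other copy, was the only member lower in every depleted than in every control library. In that comparison groups failed to overlap for 53.3% of all genes tested. In control replicates 1, 3, 4 and 5 the igf1rb level was 44.6, 33.9, 35.7 and 34.9 CPM. In depleted replicates 1 to 5 it was 25.0, 20.9, 32.7, 25.8 and 15.8 CPM, and in recovering replicates 1 to 5 it was 26.4, 26.8, 37.3, 20.2 and 27.9 CPM. Of the recovering libraries, 4 lay below all controls and replicate 3 lay within the control range. The means were 37.3 ± 4.92 CPM in control (SD, n = 4), 24.0 ± 6.26 CPM in depleted (SD, n = 5) and 27.7 ± 6.15 CPM in the recovering group (SD, n = 5). In depleted testes igf1rb fell by 0.63 ± 0.21 on the log2 scale, a 1.55-fold decrease (edgeR adjusted p = 0.0187), and it fell under each scaling tried, by 0.98 with total counts. Less the median of all genes under the same scaling, its change was -0.66 with TMM and -0.64 with total counts. Without control replicate 1, the highest control, the log2 change from control to depleted testes was -0.54 with an edgeR adjusted p of 0.0587. Recovering testes did not pass against depleted testes (0.21 ± 0.20, edgeR adjusted p = 0.386, 95% interval from -0.23 to 0.64) or against control testes (-0.42 ± 0.21, adjusted p = 0.353, 95% interval from -0.88 to 0.032).

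**Figure D3:**
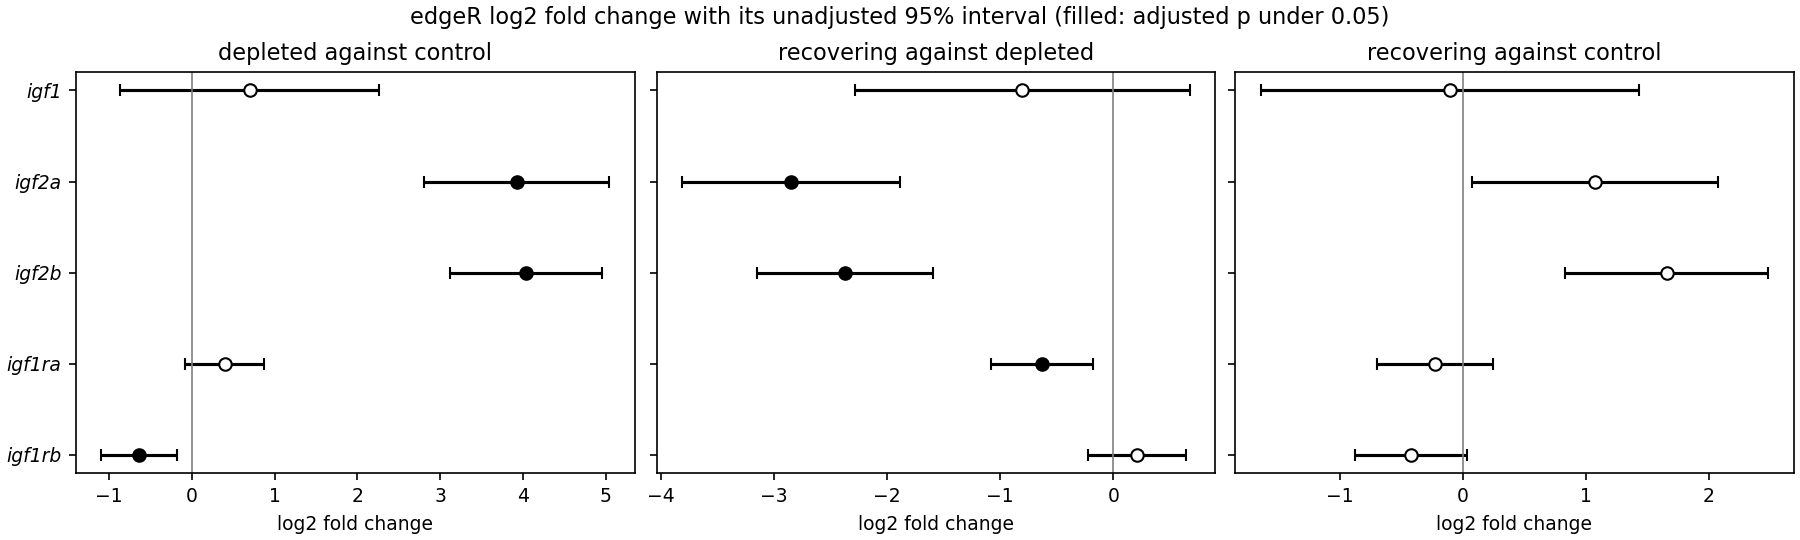
Log2 fold change of each member (horizontal) with its unadjusted 95% interval in the 3 comparisons from the edgeR fit to 14 libraries; filled circles have an adjusted p under 0.05, and each panel has its own scale. The igf2 ligands lie near 4 in depleted against control testes, igf1ra and igf1rb lie on opposite sides of 0 at 0.40 and -0.63, and the intervals of igf1 span 0 in all 3 panels.

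Ratios of 2 members within a library need no scaling between libraries, and their change between groups is free of gene length, while a ratio itself is of counts and not of transcripts. The 10 pairs of members were compared in the 3 contrasts, 30 comparisons in all, by two-sided exact permutation tests of the mean log2 ratio with Benjamini-Hochberg adjustment. The smallest p is 0.0159 with 4 against 5 libraries and 0.00794 with 5 against 5. The 10 pairs are built from 5 genes, so these tests overlap and are not independent. How often ratios of other gene pairs pass, or separate the groups, was not computed. A ratio that passes or separates therefore does not set these pairs apart from other genes. Whether a ratio at the smallest p passes after adjustment depends on how many of the other ratios also reach a small p. How reads that match both copies of a duplicated gene were counted is not given in the sources used here, so ratios between copies are uncertain to that extent.

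The receptor copies shifted against each other in depleted testes. The count ratio of igf1ra to igf1rb was 0.534, 0.580, 0.521 and 0.656 in control replicates 1, 3, 4 and 5. It was 0.962, 1.03, 1.21, 1.39 and 1.20 in depleted replicates 1 to 5, and 0.609, 0.746, 0.512, 0.731 and 0.735 in recovering replicates 1 to 5. All depleted libraries lay above all others, and the control and recovering groups overlapped. The ratio was 2.01-fold higher in depleted than in control testes, a log2 change of 1.01 (exact permutation p = 0.0159, adjusted p = 0.0298). It was 1.74-fold lower in recovering than in depleted testes, a log2 change of -0.80 (exact permutation p = 0.00794, adjusted p = 0.0298). Between recovering and control testes the log2 difference was 0.21 and did not pass (exact permutation p = 0.175, adjusted p = 0.238).

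The ratio between the igf2 copies was lower in recovering than in control testes and did not pass in the other comparisons. The count ratio of igf2a to igf2b averaged 0.345 ± 0.0338 in control (SD, n = 4), 0.328 ± 0.134 in depleted (SD, n = 5) and 0.235 ± 0.0557 in the recovering group (SD, n = 5). The depleted libraries spanned the other groups, from 0.184 in replicate 3 to 0.537 in replicate 4, while the recovering libraries, at 0.139 to 0.274, all lay below the controls, at 0.301 to 0.375. The log2 change in the ratio was -0.17 for depleted against control (exact permutation p = 0.587, adjusted p = 0.653), -0.42 for recovering against depleted (exact permutation p = 0.262, adjusted p = 0.342) and -0.59, or 1.51-fold lower, for recovering against control testes (exact permutation p = 0.0159, adjusted p = 0.0298). Log2 ratios of igf1 to igf2a and igf2b changed by -3.68 and -3.85 in depleted against control testes (exact permutation p = 0.0159, adjusted p = 0.0298). In recovering against depleted testes they changed by 2.66 and 2.24 (exact permutation p = 0.00794 and 0.0238, adjusted p = 0.0298 and 0.0420). They did not pass in recovering against control testes. Ratios of igf1 to igf1ra and to igf1rb passed in no comparison.

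The balance of ligand to receptor transcripts moved with both igf2 ligands. In depleted against control testes the ratios to igf1ra and igf1rb were 11.8-fold and 23.7-fold higher for igf2b and 10.4-fold and 21.0-fold higher for igf2a. In recovering against depleted testes they were 3.36-fold and 5.85-fold lower for igf2b and 4.50-fold and 7.83-fold lower for igf2a. Each passed (exact permutation p = 0.0159 in the first comparison and 0.00794 in the second, adjusted p = 0.0298). Per count of igf1ra there were 0.517 ± 0.0454 counts of igf2b in control (SD, n = 4), 6.70 ± 3.38 in depleted (SD, n = 5) and 1.95 ± 0.765 in the recovering group (SD, n = 5). Recovering testes ranged from 0.881 to 2.68 and control testes from 0.487 to 0.584, without overlap. The ratio was 3.50-fold higher in recovering than in control testes, a log2 change of 1.81 (exact permutation p = 0.0159, adjusted p = 0.0298). Against igf1rb the same ratio was 4.05-fold higher in recovering than in control testes (exact permutation p = 0.0159, adjusted p = 0.0298). The ratios of igf2a to igf1ra and to igf1rb were 2.32-fold and 2.68-fold higher in recovering than in control testes and missed the threshold after adjustment (exact permutation p = 0.0317, adjusted p = 0.0501 for both).

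**Figure D4:**
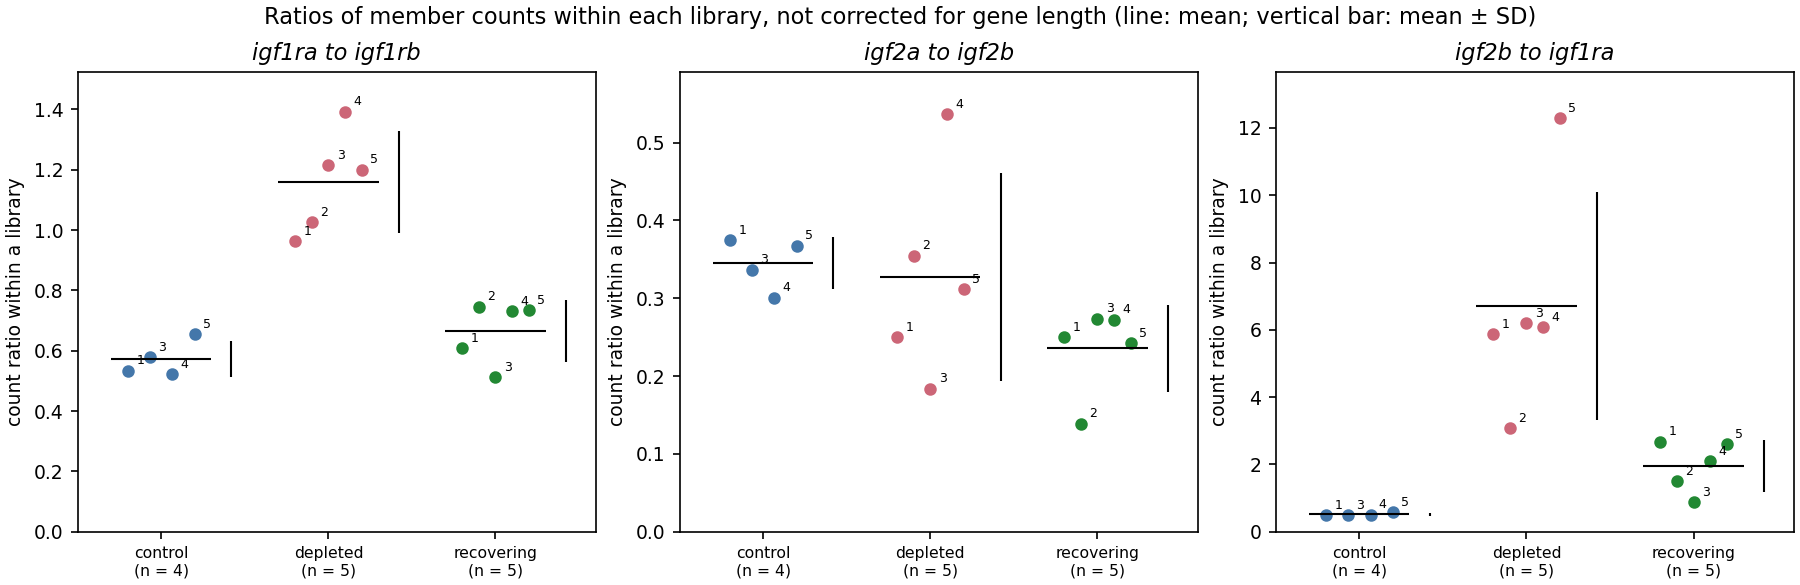
Count ratios within each library (vertical axes, linear, from 0, not corrected for gene length) for 3 pairs of members by group; numbers are replicates, horizontal lines are means and vertical bars are mean ± SD. The receptor ratio is highest in all 5 depleted libraries, the igf2a to igf2b ratio is below control in all 5 recovering libraries, and igf2b per igf1ra is above control in both other groups.

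The patterns of igf2a and igf2b over the 14 libraries were shared by many genes and those of the receptors by few. With Pearson's r of log2 CPM, 2213 other genes reached over 0.9 with igf2a and 2306 with igf2b, against 15 for igf1ra, 12 for igf1rb and 0 for igf1. The genes most like igf2a were plin3 (r = 0.987), SLC22A18 (r = 0.987) and KLF15 (r = 0.986), and those most like igf2b with a symbol were TBC1D2B (r = 0.995) and slc12a7a (r = 0.994). The genes most like igf1ra with a symbol were RREB1 (r = 0.955) and BMPR2 (r = 0.931), those most like igf1rb were AGAP1 (r = 0.940) and PRP4K (r = 0.931), and those most like igf1 were UCP1 (r = 0.882), AGXT (r = 0.872) and mapta (r = 0.867). All these correlations share the group differences, the libraries and their depth, and are given as a description.

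Around the members, 65 identifiers of the wider IGF pathway could be matched by symbol and 61 were tested. In depleted against control testes 35 rose, 6 fell and 20 did not pass, beside 34.2% of all genes rising and 32.1% falling, with a median log2 change of 0.79 against 0.032 over all genes tested. In recovering against depleted testes 2 rose, 30 fell and 29 did not pass, beside 28.7% of all genes rising and 30.5% falling, with a median of -0.70 against -0.043 over all genes. With total counts in place of TMM, which moves the median of all genes to -0.34 and 0.26, 24 rose and 11 fell in the first comparison, beside 26.2% and 40.4% of all genes, and 7 rose and 18 fell in the second, beside 36% and 21%. In recovering against control testes 0 of 61 passed by edgeR, beside 0.451% of all genes. The unadjusted edgeR p was under 0.05 for 12 of the 61, beside 3394 of all 21277 genes tested. DESeq2 called 3 higher and 3 lower and limma-voom 4 higher and 4 lower, beside 7.04% and 11.2% of all genes.

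**Figure D5:**
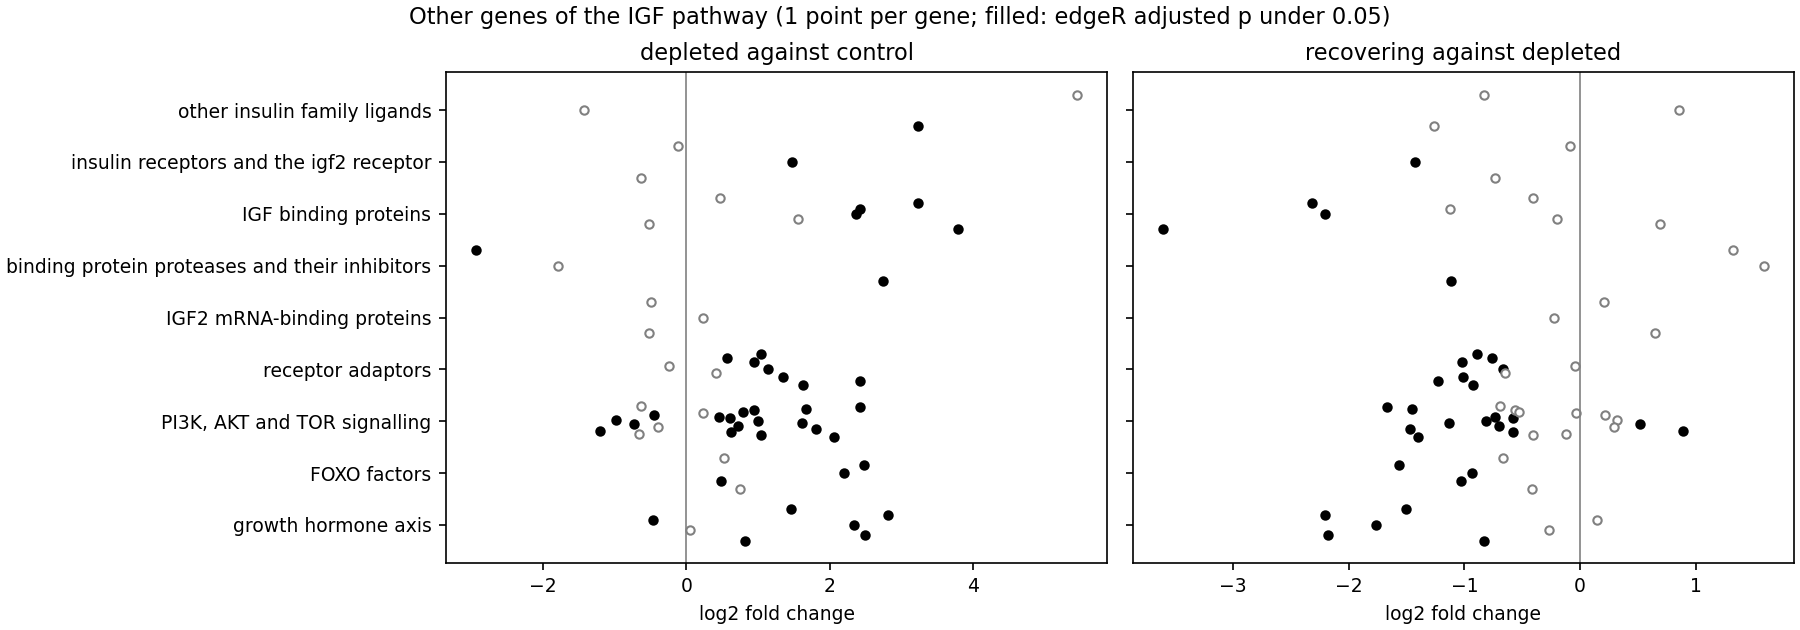
Log2 fold change (horizontal) of the 61 tested pathway genes, 1 point per gene, in rows by list, for depleted against control and recovering against depleted testes; filled points have an edgeR adjusted p under 0.05. The adaptor genes that passed, 7 of 9, lie to the right of 0 in the first panel and to the left of 0 in the second.

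Of the other insulin-family ligands, igf3, the gonadal IGF of fish, rose in depleted testes and the insulin genes ins and insb did not pass. The level of igf3 was 4.80, 1.77, 7.04 and 9.03 CPM in control replicates 1, 3, 4 and 5 and 16.0, 41.4, 49.9, 159 and 2.75 CPM in depleted replicates 1 to 5. In recovering replicates 1 to 5 it was 16.5, 45.0, 17.0, 14.0 and 19.2 CPM, above every control library. Recovering and control groups failed to overlap for 12.5% of all genes tested. Depleted replicate 5 lay within the control range for igf3, and it had the lowest depleted Leydig marker sum and a Sertoli marker sum of 4296 CPM. Single Sertoli markers differed in that library. It was the lowest depleted library for FSHR (19.5 CPM), inha (208 CPM), amh (261 CPM) and both SOX9 identifiers (81.8 and 2.88 CPM). It was not the lowest for gsdf, DMRT1 or the CLDN11 identifiers. The part of either cell type in the igf3 level was not tested. The change in depleted testes was 3.23 ± 0.88 on the log2 scale (SE, edgeR adjusted p = 0.00613), and 2.31 with an adjusted p of 0.0168 without depleted replicate 4. Recovering testes did not pass against depleted (-1.27, edgeR adjusted p = 0.157) or control testes (1.96, adjusted p = 0.268); the first was -0.31 without depleted replicate 4 (adjusted p = 0.709) and passed without depleted replicate 5 (-1.55, adjusted p = 0.0423).

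Among the receptors related to the members, 1 of 3 rose in depleted testes, where 34.2% of all genes rose, and fell in recovering against depleted testes, where 30.5% fell, so the count is near the share of all genes. It was the insulin receptor identifier ENSDARG00000071524, with means of 29.6 CPM in control, 82.2 CPM in depleted and 30.5 CPM in recovering testes, a log2 change of 1.47 ± 0.25 (SE, edgeR adjusted p = 0.000273) and then of -1.43 ± 0.23 (adjusted p = 0.000495). The other insulin receptor identifier, ENSDARG00000011948, averaged 87.8, 81.1 and 76.2 CPM and did not pass. IGF2R, which in mammals clears IGF2, averaged 129, 83.3 and 49.9 CPM and passed in no comparison. Its log2 difference between recovering and control testes was -1.37 (edgeR adjusted p = 0.0772, unadjusted p = 0.0016), at percentile 0.578 of all genes tested. The highest recovering library was at 63.0 CPM and the lowest control at 63.1 CPM, so these groups narrowly failed to overlap. That held for 12.5% of all genes tested.

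IGF binding proteins rose in depleted testes in 4 of 7 genes, beside 34.2% of all genes, and 3 fell in recovering against depleted testes, beside 30.5%. Both counts include IGFALS, which is described separately. The IGFBP5 identifier ENSDARG00000025348 averaged 87.9 CPM in control, 453 CPM in depleted and 98.4 CPM in recovering testes, with log2 changes of 2.37 ± 0.41 (SE, edgeR adjusted p = 0.000347) and -2.20 ± 0.38 (adjusted p = 0.000665). The IGFBP2 identifier ENSDARG00000031422 averaged 0.909, 8.69 and 1.74 CPM, with log2 changes of 3.23 ± 0.66 (edgeR adjusted p = 0.000918) and -2.32 ± 0.57 (adjusted p = 0.00458). The second IGFBP2 identifier, ENSDARG00000052470, averaged 8.68, 47.0 and 21.7 CPM and rose by 2.43 ± 0.58 (edgeR adjusted p = 0.00284), while its later difference of -1.12 did not pass (adjusted p = 0.0744). The second IGFBP5 identifier, ENSDARG00000039264, at means of 0.372 to 1.12 CPM, and igfbp1b and igfbp6b, at means of 0.993 to 1.75 CPM, did not pass in any comparison, and igfbp6a was too scarce to be tested.

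IGFALS, the liver-made subunit that keeps IGFs in large complexes in mammalian blood, passed with 2 libraries carrying the change. Its level was 26.8, 0.706, 1.33, 76.4 and 2.06 CPM in depleted replicates 1 to 5, against 1.67, 1.14, 1.91 and 1.44 CPM in control replicates 1, 3, 4 and 5 and 1.34 to 2.30 CPM in recovering testes. The high libraries, depleted replicates 4 and 1, are the same that had the highest liver marker sums, and the part of the liver transcripts in this result was not tested. The edgeR log2 change was 3.79 ± 1.15 from control to depleted (SE, adjusted p = 0.0106) and -3.61 ± 1.04 from depleted to recovering testes (adjusted p = 0.00997). Without depleted replicate 4 these were 2.37 (adjusted p = 0.0378) and -2.16 (adjusted p = 0.0459).

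Of 3 tested genes for proteases that cut binding proteins and for their inhibitors, 1 rose and 1 fell in depleted testes, near the 34.2% and 32.1% of all genes that did so. STC2, a stanniocalcin that inhibits the protease PAPPA in mammals, averaged 11.0 CPM in control, 73.5 CPM in depleted and 34.0 CPM in recovering testes, with a log2 change of 2.74 ± 0.46 (SE, edgeR adjusted p = 0.000261) and then of -1.11 ± 0.40 (adjusted p = 0.0281). PAPPA averaged 6.36, 0.810 and 2.10 CPM and fell by 2.93 ± 0.93 on the log2 scale in depleted testes (edgeR adjusted p = 0.0134), with groups that overlapped.

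Receptor adaptors, which link the activated receptor to PI3K and RAS, rose in depleted testes in 7 of 9 genes, beside 34.2% of all genes, and 7 fell in recovering against depleted testes, beside 30.5%. The largest change was in GRB10 (ENSDARG00000002013), an adaptor that restrains insulin and IGF1 receptor signalling in mammals, with means of 14.0, 74.8 and 31.9 CPM in control, depleted and recovering testes and log2 changes of 2.42 ± 0.42 (SE, edgeR adjusted p = 0.000308) and -1.23 ± 0.37 (adjusted p = 0.0122). The second GRB10 identifier, ENSDARG00000035308, rose by 1.63 (edgeR adjusted p = 0.00205). The adaptor grb2b, which couples receptors to RAS, rose by 1.35 (edgeR adjusted p = 9.12e-05) and fell by 1.02 in recovering testes (adjusted p = 0.000665). IRS2 (ENSDARG00000075282), a docking protein of the insulin and IGF1 receptors, fell by 1.02 on the log2 scale in recovering against depleted testes (edgeR adjusted p = 0.00522).

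The genes of PI3K, AKT and TOR signalling divided, with 13 of 21 rising and 4 falling in depleted testes, beside 34.2% and 32.1% of all genes. In recovering against depleted testes 2 rose and 10 fell, beside 28.7% and 30.5% of all genes. PIK3CB, a catalytic subunit of PI3K, averaged 17.8, 95.8 and 30.2 CPM in control, depleted and recovering testes, with log2 changes of 2.43 ± 0.29 (SE, edgeR adjusted p = 4.05e-05) and -1.67 ± 0.26 (adjusted p = 0.00041). The kinase gene gsk3bb and the TOR inhibitor TSC1 (ENSDARG00000057918) rose by 2.06 and 1.81 in depleted testes (edgeR adjusted p = 0.0013 and 0.000142), and this TSC1 identifier and PIK3CD fell by 1.47 and 1.45 in recovering against depleted testes (adjusted p = 0.000648 and 0.00204). The second TSC1 identifier, ENSDARG00000026048, changed by -0.40 and then by 0.29 and did not pass (edgeR adjusted p = 0.0827 and 0.177). The 4 genes that fell in depleted testes, named after their values were seen, were the S6 kinase gene rps6kb1a (-1.21), akt3b (-0.98), MTOR (-0.73) and PDPK1 (ENSDARG00000018285, -0.44), with edgeR adjusted p of 0.00123, 0.00237, 0.0065 and 0.0136. Of these, rps6kb1a and MTOR rose in recovering against depleted testes, by 0.89 and 0.52 on the log2 scale (edgeR adjusted p = 0.0077 and 0.0314). Related genes rose in depleted against control testes. They were rps6kb1b (0.63), akt2 (0.60) and the second PDPK1 identifier, ENSDARG00000062304 (0.46), with edgeR adjusted p of 0.0108, 0.00416 and 0.0400.

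FOXO factors, transcription factors that AKT keeps out of the nucleus, rose in 3 of 5 genes in depleted testes, beside 34.2% of all genes, and 3 fell in recovering against depleted testes, beside 30.5%. The log2 changes were 2.48 for foxo3a, 2.19 for foxo3b and 0.49 for FOXO4 in depleted against control testes (edgeR adjusted p = 0.000773, 0.00011 and 0.0494). In recovering against depleted testes they were -1.56, -0.94 and -1.03 for foxo3a, foxo3b and FOXO4 (edgeR adjusted p = 0.00858, 0.0128 and 0.00105). The 3 genes for proteins that bind IGF2 mRNA did not pass the edgeR test, and the lowest adjusted p among them was 0.0529, for IGF2BP3 in recovering against depleted testes.

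In the growth hormone axis, which drives IGF1 production in the liver, 5 of 7 genes rose and 1 fell in depleted testes, beside 34.2% and 32.1% of all genes, and 5 fell in recovering against depleted testes, beside 30.5%. The growth hormone receptor gene ghrb averaged 22.7 CPM in control, 160 CPM in depleted and 34.8 CPM in recovering testes, with log2 changes of 2.82 ± 0.50 (SE, edgeR adjusted p = 0.000361) and -2.20 ± 0.44 (adjusted p = 0.0015). SOCS2, an inhibitor of growth hormone receptor signalling, averaged 7.32, 41.2 and 9.07 CPM, with log2 changes of 2.49 ± 0.29 (edgeR adjusted p = 3.79e-05) and -2.18 ± 0.26 (adjusted p = 0.000199). The transcription factor gene stat5a changed by 2.34 and then by -1.77 on the log2 scale (edgeR adjusted p = 0.000273 and 0.00146). The gene that fell, JAK2, the kinase bound to the receptor, changed by -0.47 in depleted testes (edgeR adjusted p = 0.00197).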

How the data were processed

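The authors deposited 1 count per gene identifier for each library, read as raw counts because the values are whole and their totals differ between libraries. The submitters' processing notes name FastQC 0.10.1, TopHat2 2.0.5, SAMtools 0.1.18, HTSeq, DESeq and the genome build Zv9, without role or order. The counting mode, the strand setting and the annotation release are not given in the sources used here, so reads shared between duplicated genes or with antisense genes could be counted in more than 1 way. No genome of that build was used, and no lengths, positions or sequences are given. Of 33752 identifiers, 21948 (65.0%) were paired with a symbol by the reference gene table. Lists of pathway genes and cell markers were matched by current or older symbol, and then by the symbol without its zebrafish copy letter, which leaves some copies without their letter.

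Counts were tested with edgeR 4.0.16 in R 4.3.3. The default filterByExpr filter left 21277 genes and 99.8% of counts, libraries were TMM-scaled, and 1 quasi-likelihood model of the 3 groups was fitted to 14 libraries, with Benjamini-Hochberg adjustment over all genes tested in each comparison. A standard error is the absolute log2 fold change over the root of F. CPM refers to 1000000 TMM-scaled counts, and log2 CPM for correlations had a prior count of 2. Ratios used counts plus 0.5, with two-sided exact permutation tests (SciPy 1.17.1). Alternatives were DESeq2 1.42.0 and limma-voom with sample quality weights (limma 3.58.1), named limma-voom in the text. Further ones were relative log expression and total-count scaling, no filter, 2 groups only, libraries under 20000000 counts, a replicate block and leaving out each library. Scripts were tested on simulated data.

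Before scaling, 3 counts correspond to between 0.0617 and 0.369 CPM per library. Exact 95% intervals of single values cover counting error only. No 2 libraries of a group agreed within sampling noise, with a chi-square per degree of freedom of 13.9 to 111 in 26 pairs. The series describes the samples as biological replicates without naming the animals, so p-values measure the spread between these samples.

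Groups come from the sample titles. The members, the lists and the tests were chosen with earlier results of these data known. Named besides the members are up to 3 called genes per list and comparison with the largest log2 fold change, igf3, the insulin receptors, the IGF binding proteins, and up to 3 genes most alike in pattern to each member; identifiers without a symbol among the latter are not named. The liver-marker plot, libraries left out for igf3 and IGFALS, and genes named as such in the text were added after the data were seen.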

Additional observations from a re-analysis of the deposited data

Results flagged for a closer look

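Of the 21 sets of 4 or 5 libraries checked for a library that stands apart, 2 held one, where chance gives about 1.05. The level of igf1rb in control replicate 1 was 44.6 CPM, with the next control at 35.7 CPM, a gap of 0.833 of the group's range against a critical value of 0.829. Without that library the call that igf1rb fell in depleted testes was lost, with a log2 change of -0.54 and an edgeR adjusted p of 0.0587. Control replicate 5 held 48646941 counts, with the next control library at 11525600, a gap of 0.927 of the range. Its CPM of igf2a and igf2b were the highest of the controls, at 4.92 and 13.4, and both lay below every depleted library.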

How the results depend on the processing

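The rises of igf2a and igf2b in depleted testes and their falls in recovering testes passed under every alternative run. The fall of igf1rb in depleted testes passed under every alternative except without control replicate 1, with changes from -0.74 to -0.48 as single libraries were left out. The fall of igf1ra in recovering against depleted testes was lost with total counts (-0.33), with libraries under 20000000 counts (-0.61) and with the replicate block (-0.61), and ranged from -0.74 to -0.46 without single libraries. Its difference between depleted and control testes passed with limma-voom (0.54) and ranged from 0.26 to 0.54. The igf2b difference between recovering and control testes passed with DESeq2 (1.61), limma-voom (1.59), 2 groups only (1.70) and libraries under 20000000 counts (1.97), and ranged from 1.45 to 1.83. The igf1 difference between depleted and control testes was -0.018 without depleted replicate 4 and ranged from -0.018 to 0.99, and it was -0.31 to 0.15 for recovering against control, where it turned to 0.23 with libraries under 20000000 counts and 0.32 with the replicate block; DESeq2 gave no adjusted p there. The causes were not tested. Genes called in recovering against control testes numbered 96 in the main model, 1353 with DESeq2, 2374 with limma-voom, 1254 with 2 groups only, 236 with libraries under 20000000 counts, 9 with the replicate block, and 0 to 556 without single libraries by edgeR, with 2401 to 4089 at an unadjusted p under 0.05; the count was 0 without any 1 control and without recovering replicate 1, 2 or 4. Total counts changed the split of rising and falling genes from 7273 and 6833 to 5565 and 8591 in depleted against control, and from 6098 and 6500 to 7665 and 4464 in recovering against depleted testes.

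Fewer libraries raise the smallest exact p, and with single libraries left out some log2 ratios of recovering against depleted testes missed the threshold. They ranged from 2.25 to 3.02 for igf1 to igf2a, 1.65 to 2.68 for igf1 to igf2b, -2.36 to -1.91 for igf2a to igf1ra, -3.20 to -2.68 for igf2a to igf1rb, -2.00 to -1.49 for igf2b to igf1ra, -2.84 to -2.20 for igf2b to igf1rb and -0.86 to -0.71 for igf1ra to igf1rb. No log2 ratio against control testes passed in any of these runs, where the lowest adjusted p of the exact permutation test was 0.0501. In depleted against control testes igf1ra to igf1rb ranged from 0.94 to 1.08. In recovering against control testes igf2a to igf2b ranged from -0.66 to -0.41, igf2b to igf1ra from 1.67 to 2.07 and igf2b to igf1rb from 1.84 to 2.37. Where leaving out a library made the threshold unreachable, values were compared without a test. Replicate numbers were not treated as pairs in the main model. Deviations of same-numbered samples correlated at -0.159 to 0.241 over 13 pairs, with a mean of 0.0245 against -0.00609 for other pairs. Of the samples, 3 correlated best with their own number. Weak correlation over all genes cannot exclude that a number marks something the samples share. The libraries held as few as 1 count of igf1, and its depleted libraries also differed by more than counting error.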

Other observations

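Insulin transcripts (ins) were far more abundant in 2 libraries of different groups that share a number than in the rest. They were at 492 counts (69.5 CPM) in depleted replicate 2 and 552 counts (36.5 CPM) in recovering replicate 2, against 0 to 20 counts in the other 12 libraries. The edgeR test did not pass in any comparison for ins.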
